A study of Mus musculus with 44 samples.

Results

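The genes described here are 45 genes of DNA replication and of the step from G1 into S phase, chosen by gene name. All 45 were found by gene symbol in both deposited gene tables, among 22674 genes of the maturation table and 18274 genes of the ovulation table. The RNA came from ovarian follicles of wild-type (WT) mice of the outbred strain CD-1. The submitters describe the maturation window as gonadotropin-dependent, and in it 11 control libraries labelled DMSO (a solvent) were compared with 10 libraries labelled PFNA, that is perfluorononanoic acid, one of the per- and polyfluoroalkyl chemicals. Both groups of the ovulation window had received hCG (human chorionic gonadotropin, the hormone used to induce ovulation), and 12 control libraries were compared with 11 that had hCG and PFNA. Dose, exposure time, dates and the age of the animals are not given in the labels, and nothing says whether libraries came from separate animals or cultures, so each p-value measures only the spread between these libraries, which may be technical. In bulk follicles, fewer dividing cells and less RNA per cell cannot be told apart.

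As background, a cell prepares to copy its DNA by loading the MCM helicase onto origins, and then switches it on with CDC45 and GINS. Primase and DNA polymerases make the new strands, the clamp PCNA holds the polymerases on DNA, and the clamp loader RFC puts the clamp in place. Many of these genes are transcribed around the G1/S transition under the E2F factors, which the retinoblastoma protein holds back until cyclin-dependent kinases act. In the growing follicle the dividing cells are mainly granulosa cells, which multiply under follicle-stimulating hormone and leave the cell cycle after the ovulatory surge, whereas the oocyte is arrested in meiosis.

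The maturation values are TPM (levels scaled for transcript length and library total), for which the depth is unknown, and the ovulation values are estimated counts, given here as CPM (counts scaled to the library total, not to length), with 10600931 to 19511531 counts per library. The labelled tissue was checked against markers of granulosa cells: all 12 had a mean of at least 1 TPM or CPM in each group, and together they made up 38502 to 61083 TPM in the maturation controls and 17076 to 23587 CPM in the ovulation controls. Maturation PFNA replicates 1 and 2 stood apart from the other 8 PFNA libraries, and ovulation PFNA replicate 5 from the other 10. Their replication genes shifted least (mean log2 deviation of -0.10 and -0.49) or the other way (-0.32), so leaving them out strengthens the result and is no separate support. Maturation PFNA replicate 10 (-0.81) and ovulation PFNA replicates 2 and 10 (1.07 and 1.19) also differed from the rest. Counts of called genes are given with and without maturation PFNA replicates 1 and 2 and ovulation PFNA replicate 5. Spreads and correlations within the PFNA groups are given only with them.

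A feature the choice of genes did not use is the promoter sequence. RefSeq promoter windows of 300 bases (GRCm38.p6, of which 250 bases precede the start) were available for 36 of the 45 genes. Mcm4, Gins1, Gins2, Gins4, Prim2, Pole, Rfc2, Ccne2 and Tipin had no window. The E2F site was searched on both strands as the letters TTTCCCGC, TTTCGCGC, TTTGCCGC and TTTGGCGC, and was found in 17 of the 36 genes (47.2%), against 704 of 27025 genes in the whole table (2.6%). Counting the 250 bases before the start alone, 10 of 36 genes (27.8%) held the letters, against 2.16% of all genes. A gene with several RefSeq starts has a window at each and was counted once (6 of the 36 had several, 16.7% against 15.4% of all genes). Per window, 17 of 43 (39.5%) held the letters, against 2.26% of all windows. The letters CCAAT were found in 22 genes (61.1%, against 41.1% of all genes) and the cell cycle homology letters TTTGAA in 6 genes (16.7%, against 20.2%). By role, E2F letters were found in 7 of 9 origin licensing genes with a window, in 3 of 6 primase and polymerase genes and in none of the 4 nucleotide supply genes. A match is a description of the letters and does not show that a factor binds there. Origin licensing and nucleotide supply had median log2 fold changes of -1.21 and -1.25 with PFNA in the maturation window. Whether genes with the letters changed more than genes without them was not tested.

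Stretches of 100 bases upstream of a RefSeq start are printed below for 7 genes whose letters lie before that start. Each reads 5′ to 3′ in the direction of the gene, in lower case, with the E2F letters of either strand in capitals. They were picked after the values were seen: Mcm5 and Mcm6 hold overlapping pairs of sites, Cdc6 and Uhrf1 were among the genes that fell most in the maturation window, Orc1 and Pola1 were too low for a test there and rose in the ovulation window, and Cdc25a carries the letters but was not called in the maturation window.
Mcm5: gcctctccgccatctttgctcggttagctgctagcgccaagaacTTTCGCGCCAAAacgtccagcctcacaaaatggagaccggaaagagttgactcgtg
Mcm6: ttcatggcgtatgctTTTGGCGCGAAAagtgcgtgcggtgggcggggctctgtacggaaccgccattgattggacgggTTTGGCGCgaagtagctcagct
Cdc6: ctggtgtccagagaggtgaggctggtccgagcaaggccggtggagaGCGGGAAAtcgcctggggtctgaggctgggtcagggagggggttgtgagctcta
Orc1: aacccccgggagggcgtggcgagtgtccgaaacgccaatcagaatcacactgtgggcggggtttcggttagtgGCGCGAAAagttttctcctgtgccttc
Uhrf1: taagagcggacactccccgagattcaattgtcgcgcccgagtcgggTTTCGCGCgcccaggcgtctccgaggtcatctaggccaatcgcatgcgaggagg
Pola1: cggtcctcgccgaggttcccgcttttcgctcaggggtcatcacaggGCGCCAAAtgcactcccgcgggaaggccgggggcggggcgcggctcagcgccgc
Cdc25a: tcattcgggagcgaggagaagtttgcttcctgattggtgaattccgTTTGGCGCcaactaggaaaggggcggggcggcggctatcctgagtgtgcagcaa

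On GRCm38.p6 these stretches lie at chr8:75109312-75109411, plus strand for Mcm5 and chr1:128359731-128359830, minus strand for Mcm6. Those of the other genes lie at chr11:98907967-98908066, plus strand for Cdc6, chr4:108579354-108579453, plus strand for Orc1, chr17:56304082-56304181, plus strand for Uhrf1, chrX:93632240-93632339, minus strand for Pola1 and chr9:109875466-109875565, plus strand for Cdc25a. The RefSeq start is not always the start of the gene model. In GENCODE M21 the stretches of Cdc6 and Uhrf1 lie inside the gene, since their RefSeq starts are 350 and 992 bases after the GENCODE start. The Cdc6 stretch has 15 of its bases in an exon, and the Uhrf1 stretch has none. The window at the other RefSeq start of Uhrf1, nearer the GENCODE start, held no E2F letters. In Orc1 the last 31 bases of the stretch lie in the gene, and the other 4 stretches lie wholly before it. In Mcm5 a sense site and an antisense site overlap, beginning at -153 and -149 from the start. In Mcm6 a like pair begins at -110 and -106, with another site at -47. The map of E2F letters shows where all 23 matches lie.

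**Figure D1:**
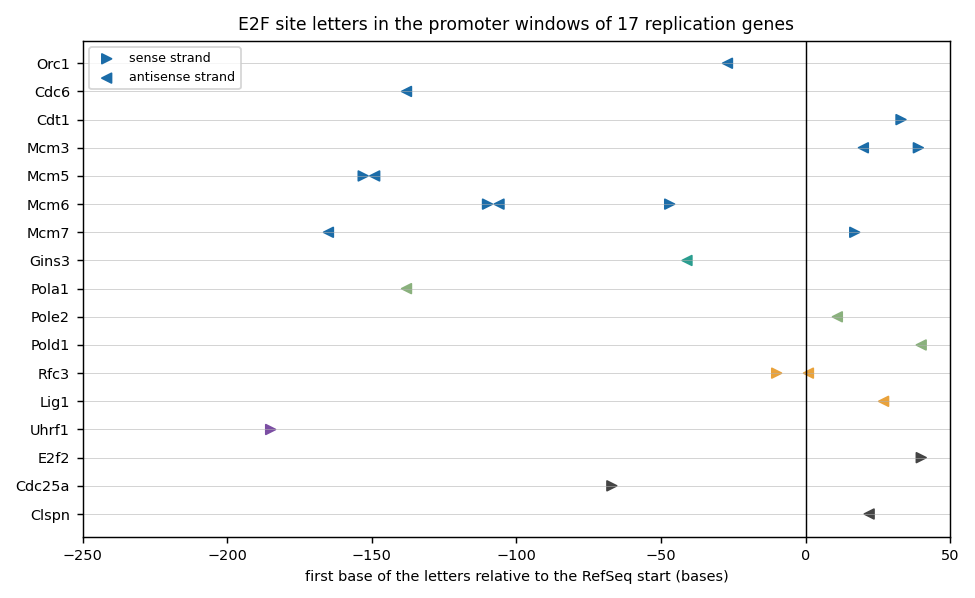
Positions of E2F site letters in the promoter windows of the 17 replication genes that hold them. The horizontal axis is the distance in bases of the first letter from the RefSeq start (vertical line), right-pointing triangles are on the sense strand and left-pointing ones on the antisense strand, and colours mark the roles. The 23 matches lie between -185 and 40, and 5 genes hold 2 or more.

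With PFNA in the maturation window, replication genes fell almost without exception. Of the 42 genes whose mean reached 1 TPM, 41 were lower and 0 higher (limma on log2(TPM + 1), Benjamini-Hochberg adjusted p under 0.05), where 16.1% of the 13712 genes tested were lower and 13.3% higher (29.4% either way). The median log2 fold change was -1.06, against 0.023 over all genes tested, and the range ran from -2.08 for Uhrf1 to -0.16 for Cdc25a. At least 2-fold lower were 24 of them, against 3.81% of all genes. Every PFNA library lay below every control for 1 gene only, Uhrf1 (0.788% of all genes did). None had every PFNA library above every control (0.489%). Orc1, Pola1 and Prim2 did not reach 1 TPM on average and so have no test. Gins1 passed this limit through its controls, since its mean with PFNA was 0.892 TPM. Without the limit on low values, 44 of 45 were lower.

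**Figure D2:**
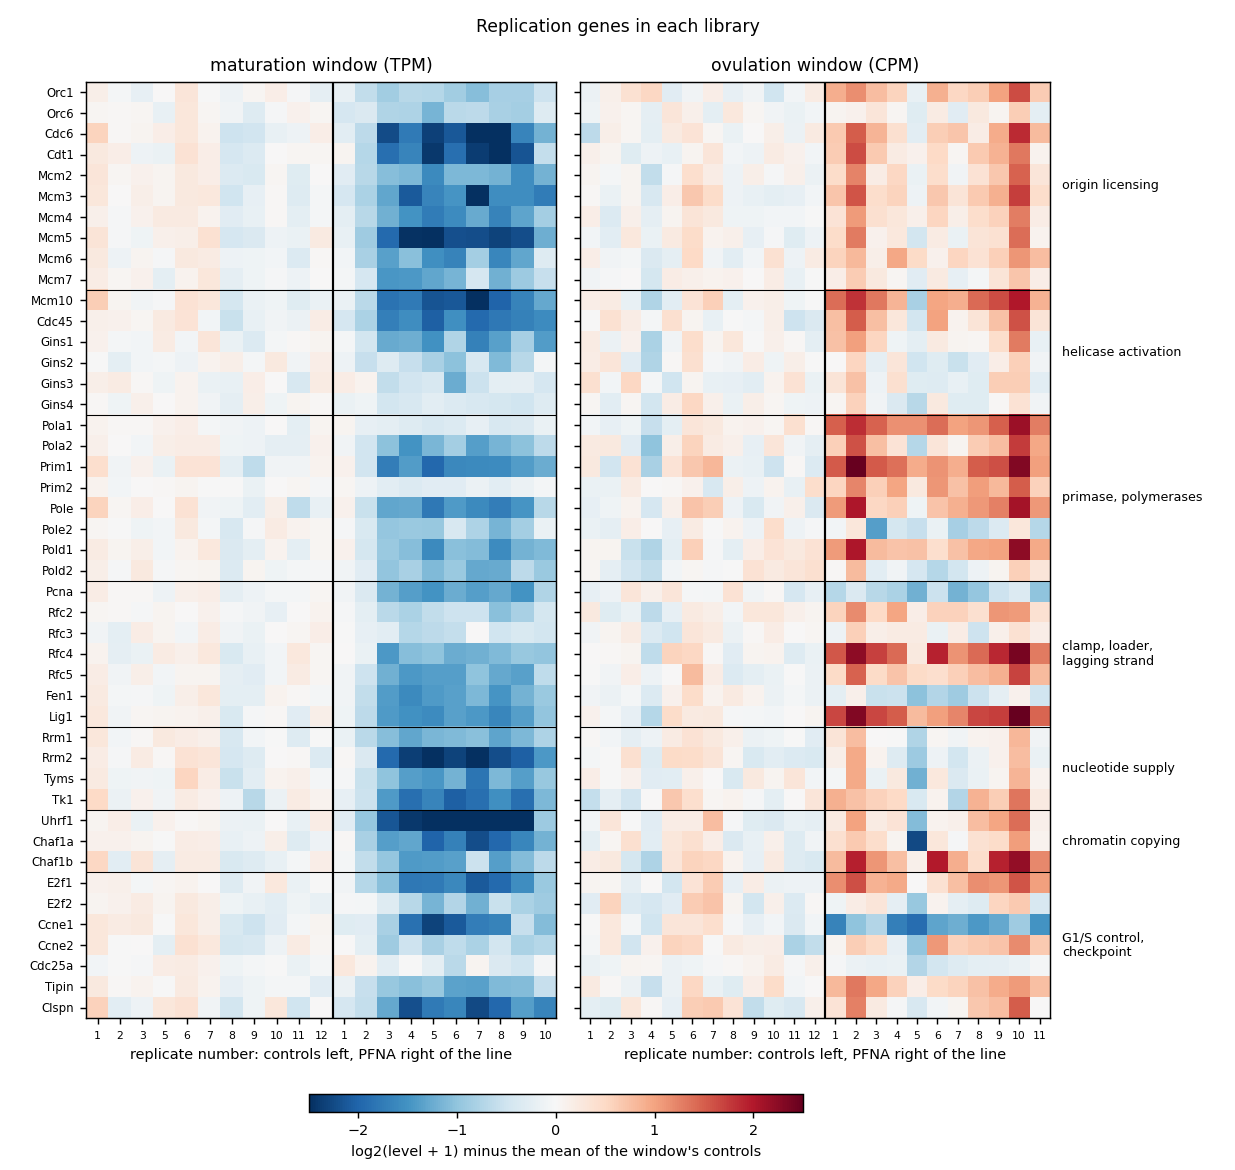
Each row is a replication gene, grouped by role, and each column a library, with the controls left and PFNA right of the vertical line in each window. Colour gives log2(level + 1) minus the mean of that window's controls, from blue (lower) to red (higher), and values beyond the ends of the scale take the end colours. In the maturation window PFNA replicates 3 to 10 are blue in nearly every row and PFNA replicate 1 is close to the controls, while in the ovulation window most rows are red with PFNA and Ccne1 and Pcna are blue.

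Origin licensing genes were lower in 9 of 9 tested, with a median log2 fold change of -1.21. MCM2 is a subunit of the ring-shaped MCM helicase, and Mcm2 (GRCm38 chr6:88883474-88898780) had the smallest p among them. Its level was 44.9 to 73 TPM in the controls (median 61.2, mean 59.5 ± 9.5 SD, n = 11) and 18.7 to 47.9 TPM with PFNA (median 26.3, mean 27.9 ± 8.45 SD, n = 10). It fell with a fold change of -1.10 on the log2 scale (SE 0.13, adjusted p = 7.1e-06 in limma). The lowest control was higher than 9 of 10 PFNA libraries. The other helicase subunits fell by 1.51 (Mcm3), 1.21 (Mcm4), 1.84 (Mcm5), 1.06 (Mcm6) and 0.89 (Mcm7) on the log2 scale.

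CDT1 and CDC6 bring the helicase to the origin recognition complex. Cdt1 (chr8:122568015-122573554) stood at 31.3 to 54.1 TPM in the controls (median 43.4, mean 42.5 ± 7.02 SD, n = 11) and 6.57 to 43.8 TPM with PFNA (median 10.7, mean 16 ± 12.3 SD, n = 10). Its fold change of -1.61 on the log2 scale (SE 0.26, adjusted p = 0.000117 in limma) left a mean of 37.7% of the control mean. Cdc6 (chr11:98907801-98923940) stood at 5.13 to 12 TPM in the controls (median 8.22, mean 8.03 ± 1.96 SD, n = 11) and 0.334 to 6.37 TPM with PFNA (median 1.32, mean 2.07 ± 1.99 SD, n = 10). The change had a fold change of -1.75 on the log2 scale (SE 0.25, adjusted p = 3.74e-05 in limma). For both, 9 of 10 PFNA libraries lay below every control and the remaining one, replicate 1, lay within the control range. Among subunits of the origin recognition complex, Orc6 fell by 0.67 on the log2 scale, while Orc1 was at 1.17 ± 0.250 TPM in the controls and 0.332 ± 0.242 TPM with PFNA (SD, n = 11 and 10).

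Helicase activation genes were lower in 6 of 6, with a median of -0.81. CDC45 joins MCM and GINS to form the active helicase, and Cdc45 had the smallest p of the group and the smallest of the 42 genes. Its level was 3.59 to 7.56 TPM in the controls (median 5.98, mean 5.8 ± 1.09 SD, n = 11) and 0.643 to 4.01 TPM with PFNA (median 1.18, mean 1.52 ± 1.07 SD, n = 10), with a fold change of -1.5 on the log2 scale (SE 0.17, adjusted p = 4.4e-06 in limma). Mcm10, which helps start the helicase, fell by 1.65 on the log2 scale. The 4 GINS subunits differed among themselves, with log2 fold changes of -1.05 for Gins1, -0.57 for Gins2, -0.39 for Gins3 and -0.34 for Gins4. The call of Gins3 (adjusted p = 0.0306 by limma) was lost when control replicate 2, PFNA replicate 3 or PFNA replicate 7 was left out, with adjusted p up to 0.0552 by limma and log2 fold changes between -0.45 and -0.30 when any 1 of the 21 libraries was left out.

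Primase and polymerase genes were lower in 6 of 6 tested, with a median of -0.96. Pola2, a subunit of the polymerase alpha complex that carries primase, had the smallest p. It stood at 7.73 to 10.6 TPM in the controls (median 9.27, mean 9.25 ± 1.12 SD, n = 11) and 2.62 to 8.63 TPM with PFNA (median 4.03, mean 4.58 ± 1.81 SD, n = 10), a fold change of -0.93 on the log2 scale (SE 0.13, adjusted p = 3.65e-05 in limma). The primase catalytic subunit Prim1 fell by 1.29, and the leading strand polymerase gene Pole by 1.17, on the log2 scale. Pold1, the catalytic subunit of polymerase delta, fell by 0.99, Pold2 by 0.83 and Pole2 by 0.66. Untested for their low level, Pola1 was at 0.775 ± 0.140 TPM in the controls and 0.482 ± 0.155 TPM with PFNA, and Prim2 at 0.702 ± 0.0806 and 0.501 ± 0.132 TPM (SD, n = 11 and 10).

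The clamp, its loader and the lagging strand enzymes were lower in 7 of 7, with a median of -1.03. Pcna (chr2:132249162-132253314) had the highest level per length of all 45 genes in the controls. It stood at 195 to 257 TPM in the controls (median 231, mean 228 ± 20.1 SD, n = 11) and 79.8 to 215 TPM with PFNA (median 94.1, mean 115 ± 46.1 SD, n = 10). Its fold change of -1.07 on the log2 scale (SE 0.15, adjusted p = 2.44e-05 in limma) was a 2.09-fold fall, with 9 of 10 PFNA libraries under the lowest control. Pcna and Tyms have processed pseudogene copies in GENCODE M21, and how the authors' counting treated shared reads is not given in the sources used here, so their levels are less certain. DNA ligase 1, which seals the fragments of the lagging strand, is encoded by Lig1 (chr7:13277283-13311433), the gene of smallest p in this group. It stood at 14.2 to 23 TPM in the controls (median 19.7, mean 19.1 ± 2.52 SD, n = 11) and 5.39 to 17.5 TPM with PFNA (median 6.58, mean 8.15 ± 3.79 SD, n = 10), a fold change of -1.21 on the log2 scale (SE 0.15, adjusted p = 1.11e-05 in limma). Fen1, which removes the primer ends, fell by 1.12 on the log2 scale. Clamp loader genes fell by 0.57 (Rfc2), 0.38 (Rfc3), 0.91 (Rfc4) and 1.03 (Rfc5).

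All 4 genes of nucleotide supply were lower, with a median of -1.25. Ribonucleotide reductase, which makes deoxyribonucleotides, is built of RRM1 and the cell cycle regulated RRM2. Rrm1, of smallest p, was at 20.4 to 33.6 TPM in the controls (median 27.1, mean 27.6 ± 4.16 SD, n = 11) and 10.3 to 24.3 TPM with PFNA (median 12.3, mean 13.8 ± 4.2 SD, n = 10), with a fold change of -0.97 on the log2 scale (SE 0.12, adjusted p = 1.06e-05 in limma). Rrm2 (chr12:24708241-24714146) was at 53.2 to 91.9 TPM in the controls (median 72.7, mean 72.6 ± 13.1 SD, n = 11) and 9.28 to 73.2 TPM with PFNA (median 15.6, mean 24.9 ± 21.6 SD, n = 10). Its fold change of -1.82 on the log2 scale (SE 0.28, adjusted p = 7.64e-05 in limma) was among the largest of the 42, and its groups overlapped through PFNA replicates 1 and 2. Tk1 (thymidine kinase) fell by 1.42 and Tyms (thymidylate synthase) by 1.09 on the log2 scale.

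Genes that copy chromatin behind the fork were lower in 3 of 3. UHRF1 reads half-methylated DNA and brings the maintenance methyltransferase to it, and Uhrf1 (chr17:56303321-56323486) changed most of all 42. It stood at 31.8 to 41.6 TPM in the controls (median 37.3, mean 36.5 ± 3.62 SD, n = 11) and 3.26 to 29.7 TPM with PFNA (median 5.65, mean 10.2 ± 8.91 SD, n = 10). The fold change of -2.08 on the log2 scale (SE 0.29, adjusted p = 2.42e-05 in limma) was a 4.23-fold fall, and no PFNA library reached the lowest control. The histone chaperone subunits Chaf1a and Chaf1b fell by 1.41 and 0.95 on the log2 scale.

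Genes of G1/S control and the fork checkpoint were lower in 6 of 7, with a median of -0.91. E2f1 (chr2:154559407-154569892), an activating E2F factor, was at 20.9 to 31.6 TPM in the controls (median 26.5, mean 26.5 ± 2.9 SD, n = 11) and 5.34 to 24.8 TPM with PFNA (median 8.1, mean 10.8 ± 6.0 SD, n = 10), with a fold change of -1.35 on the log2 scale (SE 0.19, adjusted p = 2.67e-05 in limma). E2f2 fell by 0.64 on the log2 scale. Tipin, part of the fork protection complex, had the smallest p, at 10.2 to 15.2 TPM in the controls (median 12.7, mean 12.8 ± 1.56 SD, n = 11) and 4.36 to 11.5 TPM with PFNA (median 5.89, mean 6.54 ± 2.18 SD, n = 10) and a fold change of -0.91 on the log2 scale (SE 0.12, adjusted p = 1.82e-05 in limma). Clspn (claspin, which passes the checkpoint signal on) fell by 1.51. 

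The E-type cyclins activate CDK2 at S phase entry. Ccne1 (chr7:38097984-38107534) was at 3.68 to 7.17 TPM in the controls (median 6.04, mean 5.83 ± 1.23 SD, n = 11) and 0.344 to 4.51 TPM with PFNA (median 1.65, mean 2.14 ± 1.6 SD, n = 10), a fold change of -1.27 on the log2 scale (SE 0.23, adjusted p = 0.000359 in limma). Ccne2 was at 6.07 to 11.5 TPM in the controls (median 8.66, mean 8.72 ± 1.83 SD, n = 11) and 4.16 to 8.58 TPM with PFNA (median 4.97, mean 5.48 ± 1.4 SD, n = 10), a fold change of -0.59 on the log2 scale (SE 0.12, adjusted p = 0.001 in limma). In each, PFNA replicates 1 and 2 lay within the control range and the other 8 below every control. Cdc25a (chr9:109875579-109893895), the phosphatase that removes the brake on CDK2, was the only tested gene that was not called. It was at 14.9 to 19.7 TPM in the controls (median 16.4, mean 16.9 ± 1.52 SD, n = 11) and 10.2 to 20.5 TPM with PFNA (median 15.3, mean 15.3 ± 3.2 SD, n = 10), with a fold change of -0.16 on the log2 scale (SE 0.09, adjusted p = 0.2 in limma), and 5 PFNA libraries were below and 1 above every control. Without PFNA replicates 1 and 2, Cdc25a was called too, at a log2 fold change of -0.25, and all 42 were lower.

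The fall was not even across the PFNA libraries. The mean over the 45 genes of the log2 deviation from the controls was -0.10 in PFNA replicate 1 and -0.49 in replicate 2, between -1.43 and -0.81 in the other 8, and between -0.26 and 0.21 in the controls. In replicate 1, 2 of the 45 genes lay below every control, in replicate 2 it was 29, and in replicates 3 to 10 it was 38 to 45. Leaving out replicates 1 and 2 gave a median log2 fold change of -1.25. Within the controls the genes varied less, with a median coefficient of variation of 14.2% (range 6.07% to 28.3%), than within PFNA (median 43.9%, range 9.75% to 95.7%). Over the 990 pairs of genes, the median correlation of log2 levels between libraries was 0.51 in the controls and 0.77 with PFNA. Genes of a pair share their libraries, so these correlations are a description. The spread and correlation with PFNA include replicates 1 and 2 and were not computed without them.

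Markers of the oocyte and of granulosa cells moved beside these genes. Of 18 oocyte markers tested, 18 were lower with PFNA, where 16.1% of all genes tested were lower and 13.3% higher. The summed level of all 20 was 250.8 to 415.2 TPM in the controls and 12.6 to 623 TPM with PFNA. No oocyte marker was at 0 in every library of a group, but 18 were at 0 in some PFNA libraries. The oocyte share of the library was 0.0251% to 0.0415% in the controls, 0.00126% to 0.00594% in PFNA replicates 3 to 9, and 0.0248%, 0.0205% and 0.0623% in PFNA replicates 1, 2 and 10. PFNA replicate 10 had the highest oocyte share of all maturation libraries, and 38 of its 45 replication genes lay below every control. When the oocyte share entered as a covariate, 22 of 42 genes were lower and the median was -0.58. In that fit 3.70% of all genes tested were lower and 3.35% higher. The share lay below every control in PFNA replicates 1 to 9, so this fit cannot tell the share and PFNA apart. Of 12 granulosa markers, 6 were lower and 1 higher, and their summed level was 38502 to 61083 TPM in the controls and 17443 to 46557 TPM with PFNA, with 1 marker at 0 in some PFNA libraries. The part of the granulosa markers in the result was not tested.

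**Figure D3:**
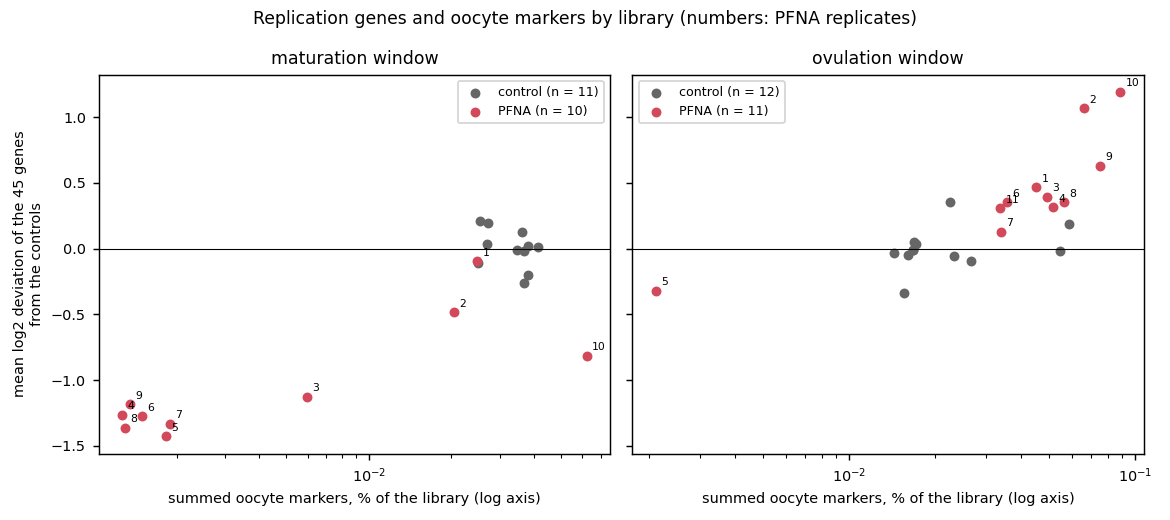
Each point is a library, grey for controls and red for PFNA, with PFNA replicate numbers. The vertical axis is the mean log2 deviation of the 45 genes from the window's controls, and the horizontal axis is the share of the library in oocyte markers, in percent on a log axis. In the maturation window PFNA replicate 10 combines the highest oocyte share (0.0623%) with a deviation of -0.81, and in the ovulation window PFNA replicate 5 combines the lowest oocyte share (0.00210%) with a deviation of -0.32.

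With PFNA in the ovulation window, most of the same genes were higher, and they were less uniform. All 45 were tested (edgeR's quasi-likelihood test on the rounded counts), of which 28 were higher, 5 lower and 12 not called. The background was high in this window: 38.0% of the 13441 genes tested were higher and 35.2% lower (73.2% either way). The median log2 fold change of the 45 was 0.55, against 0.039 over all genes tested, and the range ran from -1.69 (Ccne1) to 1.84 (Rfc4). At least 2-fold higher were 10 genes, close to the background share (18.1% of all genes were), and at least 2-fold lower was Ccne1 (9.02%). Every PFNA library lay above every control for 3 genes, Pola1, Prim1 and Lig1 (11.9% of all genes did), and below for Ccne1 (14.1%). The shares for groups that do not overlap were thus below the background of this window.

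Origin licensing genes were higher in 8 of 10 (80%, where 38.0% of all genes tested were), with a median of 0.59. Mcm6 had the smallest p, at 47.2 to 85.4 CPM in the controls (median 57.4, mean 61.5 ± 11.9 SD, n = 12) and 65 to 132 CPM with PFNA (median 89.8, mean 93.6 ± 20.8 SD, n = 11), a fold change of 0.60 on the log2 scale (SE 0.12, adjusted p = 4.92e-05 in edgeR). Mcm2 was at 20.9 to 43.6 CPM in the controls (median 32.8, mean 32.8 ± 5.44 SD, n = 12) and 28.9 to 91.9 CPM with PFNA (median 44.5, mean 48.7 ± 19.3 SD, n = 11), a fold change of 0.57 on the log2 scale (SE 0.16, adjusted p = 0.00244 in edgeR). In Mcm6 7 and in Mcm2 6 of 11 PFNA libraries were above every control, and none below. Mcm3 rose by 0.80, Mcm4 by 0.54 and Mcm5 by 0.46 on the log2 scale. The call of Mcm5 (adjusted p = 0.0222 by edgeR) was lost without PFNA replicate 2 or 10, with adjusted p up to 0.0660 and log2 fold changes no lower than 0.32 in edgeR. Mcm7 was not called, at a log2 fold change of 0.20 (edgeR adjusted p = 0.0736), and passed the threshold without PFNA replicate 5 or 7, with DESeq2 and with median-ratio size factors.

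Of the loading factors, Cdc6 was at 1.59 to 4.18 CPM in the controls (median 3.25, mean 3.15 ± 0.710 SD, n = 12) and 2.43 to 13.9 CPM with PFNA (median 5.63, mean 6.41 ± 3.23 SD, n = 11), a fold change of 1.02 on the log2 scale (SE 0.22, adjusted p = 0.000218 in edgeR). Cdt1 was at 11.2 to 17.6 CPM in the controls (median 14.1, mean 14.1 ± 1.84 SD, n = 12) and 14.5 to 45.5 CPM with PFNA (median 22.5, mean 23.4 ± 9.78 SD, n = 11), a fold change of 0.73 on the log2 scale (SE 0.16, adjusted p = 0.000286 in edgeR). The lowest PFNA libraries of both lay within the control range. Orc1, untested in the maturation window, rose by 0.98 on the log2 scale (edgeR adjusted p = 5.89e-05), and 9 of 11 PFNA libraries were above every control. Orc6 was not called, at 0.10.

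Helicase activation genes were higher in 3 of 6 (50%, where 38.0% of all genes tested were). Mcm10 had the smallest p, at 4.13 to 12.2 CPM in the controls (median 7.97, mean 7.91 ± 2.07 SD, n = 12) and 3.93 to 33.9 CPM with PFNA (median 20.7, mean 19.9 ± 8.23 SD, n = 11), a fold change of 1.33 on the log2 scale (SE 0.23, adjusted p = 1.02e-05 in edgeR). For Mcm10 10 of 11 PFNA libraries were above every control, and PFNA replicate 5 was below every control. Cdc45 rose by 0.77 and Gins1 by 0.51 on the log2 scale. Gins1 (adjusted p = 0.0366 by edgeR) lost its call in 8 of 23 fits that left out a library (controls 2, 4, 5 and 12, PFNA replicates 1, 2, 3 and 10), with log2 fold changes from 0.36 to 0.57 and adjusted p up to 0.111 in edgeR. Gins2, Gins3 and Gins4 were not called, at -0.01, 0.20 and -0.03.

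Primase and polymerase genes were higher in 6 of 8 (75%, where 38.0% of all genes tested were), with a median of 1.09, the highest of the 7 roles. Pola1, the catalytic subunit of polymerase alpha, had the smallest p of all 45 genes. It was at 6.4 to 13.6 CPM in the controls (median 10.3, mean 10.2 ± 2.01 SD, n = 12) and 21.1 to 47.7 CPM with PFNA (median 28, mean 29.2 ± 7.9 SD, n = 11), a fold change of 1.51 on the log2 scale (SE 0.13, adjusted p = 2.39e-10 in edgeR). The groups did not overlap. Its partners rose too: Prim1 by 1.78, Prim2 by 1.0 and Pola2 by 0.81 on the log2 scale. Pole rose by 1.22 and Pold1 by 1.18, whereas the accessory subunit Pole2 fell by 0.42 and Pold2 was not called at 0.02. The call of Pole2 (adjusted p = 0.0467 by edgeR) was lost in 14 of 23 fits that left out a library (controls 3, 4, 6, 7, 8, 10 and 12, PFNA replicates 3, 4, 5, 7, 8, 9 and 11), with adjusted p up to 0.0873 in edgeR.

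The clamp and the lagging strand enzymes moved apart. Pcna was lower, at 96.8 to 166 CPM in the controls (median 125, mean 131 ± 21.5 SD, n = 12) and 56 to 101 CPM with PFNA (median 78.3, mean 77.7 ± 16.1 SD, n = 11), a fold change of -0.75 on the log2 scale (SE 0.11, adjusted p = 7.66e-07 in edgeR), and 9 of 11 PFNA libraries were below every control. Fen1 fell by 0.44 on the log2 scale (edgeR adjusted p = 0.00325). Lig1 was higher, at 8.47 to 20.2 CPM in the controls (median 14.4, mean 14.8 ± 2.87 SD, n = 12) and 25.7 to 87.1 CPM with PFNA (median 48.4, mean 48.7 ± 18.2 SD, n = 11), a fold change of 1.72 on the log2 scale (SE 0.17, adjusted p = 1.27e-09 in edgeR). Its lowest PFNA library was above its highest control. Clamp loader genes rose by 0.74 (Rfc2), 1.84 (Rfc4) and 0.96 (Rfc5), and Rfc3 was not called at 0.13.

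Nucleotide supply changed least, with 1 of 4 genes higher (25%, where 38.0% of all genes tested were) and a median of 0.16. Tk1, of smallest p, was at 1.04 to 3.91 CPM in the controls (median 2.08, mean 2.15 ± 0.812 SD, n = 12) and 0.844 to 6.69 CPM with PFNA (median 3.59, mean 3.44 ± 1.65 SD, n = 11), a fold change of 0.67 on the log2 scale (SE 0.27, adjusted p = 0.0302 in edgeR). This call was lost without control replicate 1 or without PFNA replicate 1, 8 or 10, with adjusted p up to 0.0818 and log2 fold changes no lower than 0.53 in edgeR. Rrm2 was at 16.7 to 31.2 CPM in the controls (median 21.7, mean 22.8 ± 5.72 SD, n = 12) and 11.4 to 43.5 CPM with PFNA (median 20.1, mean 23.4 ± 9.48 SD, n = 11), with a fold change of 0.04 on the log2 scale (SE 0.18, adjusted p = 0.834 in edgeR) and was not called. Rrm1 and Tyms were not called, at 0.17 and 0.15.

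Among chromatin copying genes, Chaf1b had the smallest p, at 0.689 to 3.25 CPM in the controls (median 2.18, mean 1.99 ± 0.818 SD, n = 12) and 2.14 to 12.3 CPM with PFNA (median 5.17, mean 6.45 ± 3.54 SD, n = 11), a fold change of 1.69 on the log2 scale (SE 0.29, adjusted p = 1.32e-05 in edgeR). Uhrf1 rose by 0.48 on the log2 scale (edgeR adjusted p = 0.0351), a call that was lost in 8 of 23 fits that left out a library (controls 4, 9, 10 and 12, PFNA replicates 2, 8, 9 and 10), with log2 fold changes from 0.35 to 0.53 and adjusted p up to 0.0975 in edgeR. Chaf1a was not called at 0.29, and was called without PFNA replicate 5, at 0.40 (adjusted p = 0.00713 by edgeR).

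In G1/S control, E2f1 and cyclin E1 went in opposite directions. E2f1 was at 5.56 to 13 CPM in the controls (median 7.72, mean 8.23 ± 1.99 SD, n = 12) and 8.14 to 26.7 CPM with PFNA (median 17.4, mean 17.5 ± 5.57 SD, n = 11), a fold change of 1.09 on the log2 scale (SE 0.17, adjusted p = 2.29e-06 in edgeR). Ccne1, of smallest p in this group, was at 4.13 to 8.72 CPM in the controls (median 6.02, mean 6.36 ± 1.41 SD, n = 12) and 0.929 to 3.35 CPM with PFNA (median 1.9, mean 1.96 ± 0.745 SD, n = 11), a fold change of -1.69 on the log2 scale (SE 0.20, adjusted p = 2.41e-08 in edgeR), a 3.22-fold fall in which no PFNA library reached the lowest control. Ccne2 was at 2.83 to 8.72 CPM in the controls (median 6.23, mean 5.88 ± 1.86 SD, n = 12) and 2.36 to 14 CPM with PFNA (median 9.08, mean 8.64 ± 3.36 SD, n = 11), a fold change of 0.55 on the log2 scale (SE 0.23, adjusted p = 0.0314 in edgeR). The Ccne2 call was lost without control replicate 3, 11 or 12 or PFNA replicate 6 or 10, with log2 fold changes from 0.46 to 0.65 and adjusted p up to 0.0716 in edgeR.

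Cdc25a fell slightly, at 43.6 to 57.2 CPM in the controls (median 49.4, mean 49.4 ± 4.13 SD, n = 12) and 29.2 to 48.2 CPM with PFNA (median 43.1, mean 41.6 ± 5.39 SD, n = 11), a fold change of -0.25 on the log2 scale (SE 0.07, adjusted p = 0.00302 in edgeR). Tipin rose by 0.82 on the log2 scale, and Clspn by 0.51, a call (adjusted p = 0.0436 by edgeR) lost in 12 of 23 fits that left out a library (controls 1, 2, 4, 5, 9, 10, 11 and 12, PFNA replicates 2, 8, 9 and 10), with adjusted p up to 0.135 in edgeR. E2f2 was not called at -0.04.

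**Figure D4:**
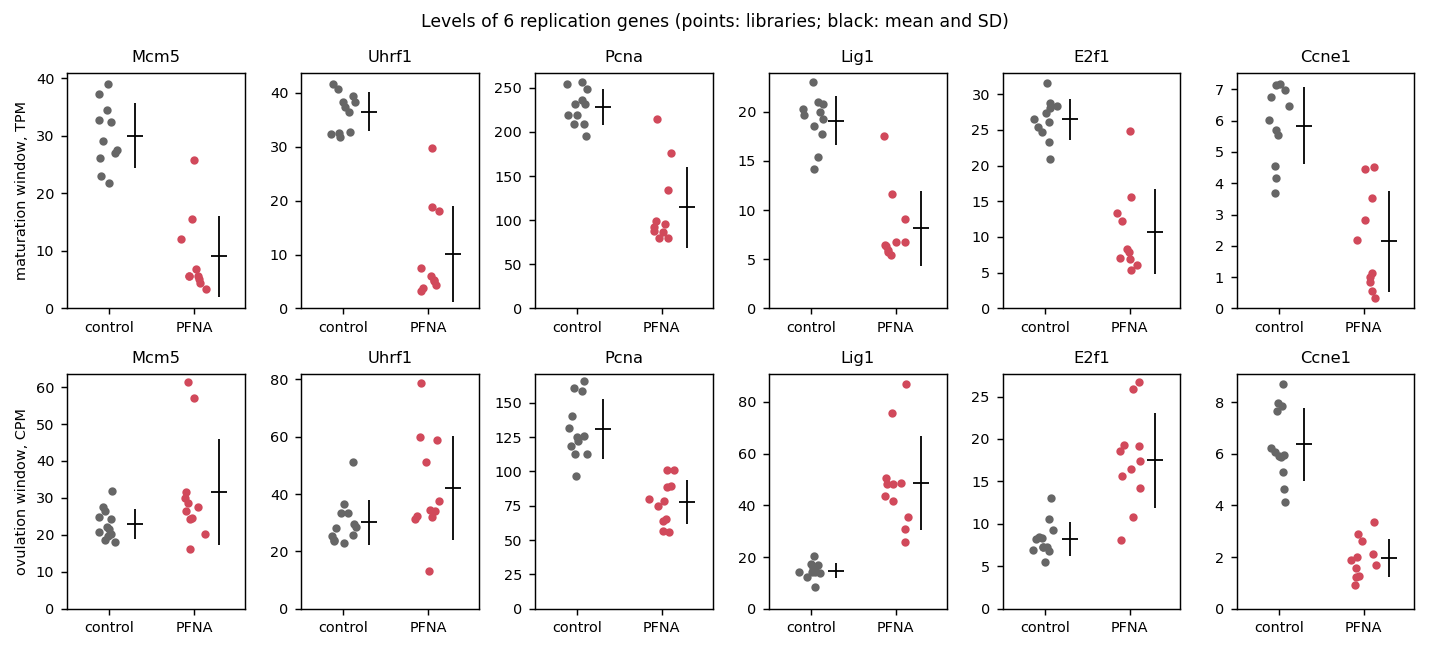
Levels of Mcm5, Uhrf1, Pcna, Lig1, E2f1 and Ccne1 in each library (points), in TPM in the maturation window (top) and CPM in the ovulation window (bottom), with controls in grey and PFNA in red; black lines give the mean and SD. Lig1 and E2f1 are lower with PFNA in the top row and higher in the bottom row, while Pcna and Ccne1 are lower in both.

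The PFNA libraries of the ovulation window also differed among themselves. The mean log2 deviation of the 45 genes from the controls was -0.32 in PFNA replicate 5, 0.13 in replicate 7, 1.07 in replicate 2, 1.19 in replicate 10 and 0.31 to 0.63 in the other 7, against -0.34 to 0.35 in the controls. In replicates 2 and 10, 38 of the 45 genes lay above every control. In replicate 5, 16 lay below every control and 4 above. Without replicate 5, 30 genes were higher and 4 lower, and without replicate 10, 22 were higher and 5 lower. The median correlation over pairs of genes was 0.32 in the controls and 0.75 with PFNA, where replicate 5 was included.

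Here too the markers moved. Of 19 oocyte markers tested, 12 were higher and 0 lower with PFNA (63.2% higher, where 38.0% of all genes tested were higher and 35.2% lower). The summed level of all 20 was 157 to 596 CPM in the controls and 21.6 to 779 CPM with PFNA, with 13 markers at 0 in some PFNA libraries. The oocyte share was 0.0143% to 0.0586% in the controls, 0.00210% in PFNA replicate 5 and 0.0337% to 0.0887% in the other PFNA libraries. After adding the oocyte share as a covariate, 21 replication genes were higher and 5 lower, with a median of 0.34. In that fit 35.2% of all genes tested were higher and 35.2% lower. The median share was 0.0170% in the controls and 0.0490% with PFNA, so this fit cannot fully tell the share and PFNA apart. Of 12 granulosa markers, 9 were higher (75%) and 2 lower (16.7%), with summed levels of 17076 to 23587 CPM in the controls and 16596 to 25773 CPM with PFNA, and 1 marker at 0 in some PFNA libraries. The part of the granulosa markers in the result was not tested.

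Set side by side, 25 genes were lower in the maturation window and higher in the ovulation window, 12 were lower in the maturation window and not called in the other, and 4 (Pcna, Fen1, Pole2 and Ccne1) were lower in both. The remaining genes were Cdc25a, not called and then lower, and the 3 genes untested in the maturation window, which were higher in the ovulation window. The difference between the PFNA effects was tested gene by gene, each effect being fitted with limma within its own table because the units differ. Of the 42 genes tested in both, 37 had a higher effect in the ovulation window and 0 a lower one, where 32.0% of 11213 genes tested had a higher and 35.6% a lower effect (67.7% either way). The median difference was 1.62 on the log2 scale, against -0.04 over all genes tested.

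The difference was 2.81 (SE 0.22, limma adjusted p = 4.58e-15) for Lig1, 2.78 (SE 0.29, limma adjusted p = 2.02e-11) for Prim1 and 2.77 (SE 0.33, limma adjusted p = 6.75e-10) for Mcm10, the 3 largest. All 9 origin licensing genes tested, all 4 of nucleotide supply and all 3 of chromatin copying differed between windows. No difference was called for Pcna at 0.31 (SE 0.18, limma adjusted p = 0.126), Gins4 at 0.29 (SE 0.14, limma adjusted p = 0.062), Pole2 at 0.24 (SE 0.20, limma adjusted p = 0.286), Ccne1 at -0.06 (SE 0.27, limma adjusted p = 0.863) and Cdc25a at -0.08 (SE 0.12, limma adjusted p = 0.535). These p-values do not show that PFNA acts alike on them in both windows. Once the oocyte share was a covariate, 28 genes had a higher and 2 (Ccne1 and Cdc25a) a lower effect in the ovulation window. Of all genes tested in that fit, 25.1% had a higher and 33.9% a lower effect.

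**Figure D5:**
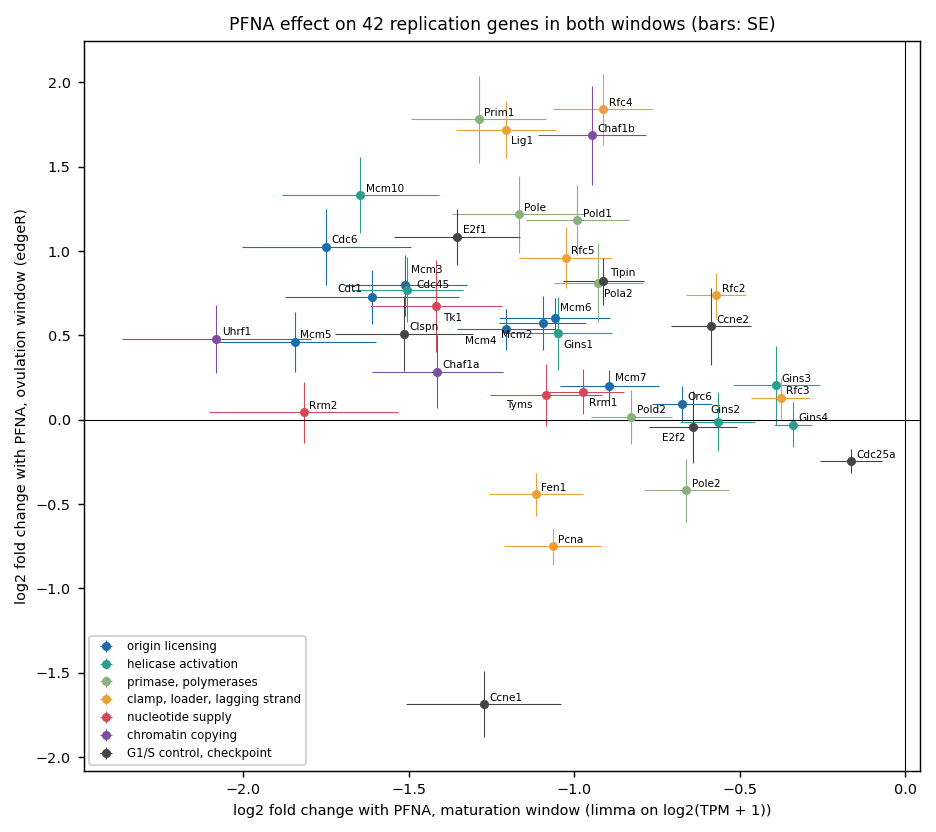
Each point is 1 of the 42 replication genes tested in both windows, coloured by role. The horizontal axis is its log2 fold change with PFNA in the maturation window (limma on log2(TPM + 1)), the vertical axis that in the ovulation window (edgeR), and bars are standard errors. All 42 lie left of 0, and most lie above 0, with Ccne1 lowest at -1.69 and Pcna, Fen1, Pole2 and Cdc25a also called below 0.

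Some subunits changed as a share of the summed level of their set, and 10 of 22 shares passed the test (6 of 11 in the maturation and 4 of 11 in the ovulation window). This was examined after the values had been seen, as the share of each subunit in the summed level of its set within a library, with the shares tested by a two-sided permutation test (100000 resamples) and adjusted over the 22. The shares of a set always add up to the whole, so a fall in some raises others and the tests are not independent. A share can rise though the level fell, as for Mcm7 and Gins4 in the maturation window. In the maturation window the share of Mcm5 in the summed MCM2 to MCM7 level went from 8.22% ± 0.819 in the controls to 4.82% ± 1.72 with PFNA (SD, n = 11 and 10, permutation adjusted p = 0.00088), and 9 of 10 PFNA libraries lay under the lowest control. The share of Mcm3 went from 19.0% ± 1.03 to 15.1% ± 4.11 (permutation adjusted p = 0.00535), and that of Mcm7 from 34.3% ± 2.30 to 41.2% ± 5.70 (permutation adjusted p = 0.00123). Within GINS, the share of Gins1 went from 6.22% ± 1.05 to 2.77% ± 1.97 (permutation adjusted p = 0.00099) and that of Gins4 from 45.2% ± 3.29 to 50.5% ± 5.58 (permutation adjusted p = 0.0338).

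In the ovulation window the shares of Mcm3, Mcm7 and Gins1 moved the other way. The share of Mcm7 went from 29.9% ± 2.42 to 24.6% ± 2.51 (SD, n = 12 and 11, permutation adjusted p = 0.00099), that of Mcm3 from 11.4% ± 1.55 to 13.8% ± 1.99 (permutation adjusted p = 0.0106), and that of Gins1 from 12.3% ± 2.02 to 16.3% ± 3.33 (permutation adjusted p = 0.00553). The shares of Mcm2, Mcm4, Mcm6, Gins2 and Gins3 were called in neither window (permutation adjusted p of 0.234 or more), and those of Mcm5 (0.494) and Gins4 (0.175) were not called in the ovulation window. Counts are not per length, so these shares are compared between groups and not between subunits. Cyclin E1 as a share of both E-type cyclins went from 52.7% ± 7.81 to 19.4% ± 5.30, and all 11 PFNA libraries lay under the lowest control (permutation p = 2e-05, the smallest these resamples can give, adjusted 0.00044). That share went in the maturation window from 40.1% ± 3.25 to 25.3% ± 13.9 (permutation adjusted p = 0.0106), and 7 of 10 lay under the lowest control.

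Beyond the 45 genes, 99 other genes of replication and its control were followed, from lists chosen by name. Of the 99, 62 were lower and 3 (Myc, Rbl2 and Fbxw7) higher in the maturation window, where 16.1% of all genes tested were lower and 13.3% higher. In the ovulation window 26 were lower (26.3%) and 43 higher (43.4%), which is near the 35.2% and 38.0% of all genes tested. The lists follow in turn, each with the genes of smallest p in each direction.

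Of 35 RB, E2F and CDK control genes, 17 were lower and 3 higher in the maturation window. In the ovulation window 14 were lower (40%) and 11 higher (31.4%), shares near those of all genes tested (35.2% and 38.0%). Ccna2, cyclin A2 of S and G2 phase, fell from 123 ± 15.7 to 33.7 ± 24.9 TPM in the maturation window (log2 change -2.06 ± 0.23 SE, adjusted p = 4.99e-06 in limma). Myc, a growth factor-induced transcription factor, rose from 57.8 ± 20.3 to 126 ± 54.4 TPM (log2 change 1.08 ± 0.24 SE, adjusted p = 0.00182 in limma). Fbxw7, part of the ubiquitin ligase that marks cyclin E for destruction, fell in the ovulation window (log2 change -1.17 ± 0.07 SE, adjusted p = 2.45e-13 in edgeR), and the repressor E2f6 rose (log2 change 0.87 ± 0.07 SE, adjusted p = 6.48e-11 in edgeR). Ccnd2, the D-type cyclin of granulosa cells, fell in both windows, by 2.0 in the maturation and 1.19 in the ovulation window on the log2 scale.

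The inhibitor Cdkn1a (p21) fell by 1.08 on the log2 scale in the maturation window and was not called in the ovulation window, at -0.15. Cdkn1b (p27) was not called in the maturation window, at 0.18, and rose in the ovulation window by 0.47. The repressors E2f7 and E2f8, themselves E2F targets, fell by 1.52 and 1.95 in the maturation window. After hCG, E2f8 rose by 0.62 and E2f7 was not called, at 0.22.

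Of 16 other initiation genes, 9 were lower and 0 higher in the maturation window. In the ovulation window 8 were higher (50%) and 3 lower (18.8%), where 38.0% and 35.2% of all genes tested were. Gmnn (geminin, the inhibitor of CDT1) had the smallest p in the maturation window (log2 change -1.48 ± 0.20 SE, adjusted p = 1.72e-05 in limma), and fell in the ovulation window too, by 0.55. Mcm8 rose in the ovulation window (log2 change 2.23 ± 0.26 SE, adjusted p = 3.3e-08 in edgeR) and Mcm9, which encodes its partner, fell (log2 change -1.09 ± 0.11 SE, adjusted p = 2.66e-09 in edgeR). Their groups did not overlap, at 3.06 ± 1.38 to 14.4 ± 5.63 CPM for Mcm8 and 18.3 ± 2.49 to 8.59 ± 1.66 CPM for Mcm9 (mean ± SD, n = 12 and 11). Both were listed by name and lie outside the MCM2 to MCM7 set, so their changes are not read as changes in initiation.

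Of 23 other fork and repair synthesis genes, 19 were lower and 0 higher in the maturation window, with Rpa1, a subunit of the single-strand binding protein, of smallest p (log2 change -0.50 ± 0.06 SE, adjusted p = 6.37e-06 in limma). With hCG present, 15 were higher and 3 lower, led by Brca2, a gene of DNA repair by recombination (log2 change 2.06 ± 0.18 SE, adjusted p = 2.63e-10 in edgeR), and Rnaseh2a, a subunit of the nuclease that removes RNA from DNA (log2 change -0.75 ± 0.13 SE, adjusted p = 1e-05 in edgeR). Of 10 other chromatin copying genes, 9 were lower and 0 higher in the maturation window, led by the histone chaperone Asf1b (log2 change -1.47 ± 0.17 SE, adjusted p = 5.93e-06 in limma). In the hCG-treated follicles 3 were higher (30%) and 2 lower (20%), below the 38.0% and 35.2% of all genes tested. The higher ones were led by the histone methyltransferase Ezh2 (log2 change 0.43 ± 0.09 SE, adjusted p = 7.94e-05 in edgeR). The lower ones were led by Slbp, which binds histone mRNA (log2 change -0.35 ± 0.09 SE, adjusted p = 0.00113 in edgeR).

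Of 15 other nucleotide supply genes, 8 were lower and 0 higher in the maturation window, led by deoxycytidine kinase Dck (log2 change -1.0 ± 0.13 SE, adjusted p = 1.32e-05 in limma). After hCG 6 were higher (40%) and 4 lower (26.7%), where 38.0% and 35.2% of all genes were. Rrm2b, the ribonucleotide reductase subunit that also serves cells outside S phase, rose (log2 change 1.06 ± 0.10 SE, adjusted p = 9.68e-10 in edgeR), and the CTP synthase gene Ctps fell (log2 change -0.98 ± 0.06 SE, adjusted p = 8.3e-13 in edgeR). The groups did not overlap for either of these genes in the ovulation window.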

How the data were processed

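Expression was measured in 21 libraries of the maturation window and 23 of the ovulation window. In the maturation table, although it is named as raw counts, the values the authors deposited are TPM, as found from the values: each library summed to 1000000, 83.5% of values were not whole, and longer transcripts had lower control means relative to the other table (log2 slope -1.20 on length, 7234 genes). For the ovulation window the deposited values are estimated counts, which were rounded. HISAT2, Bowtie2 and Partek are named per the submitters' processing notes; versions, strand use and annotation are not given in the sources used here. Gene starts of all 45 genes in the maturation table matched GENCODE M21 (GRCm38), whose coordinates are printed 1-based. For the ovulation window, 15 of 45 starts and 13 of 45 ends matched, so the gene models of the tables may differ, and the coordinates of that table were not used. Every column of sample values was used (0 unused). A maturation column whose name differs by a letter from the title of control replicate 6, and fits no other title, was read as that sample.

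The maturation window was fitted with limma 3.58.1 (trend, robust) on log2(TPM + 1) for genes averaging 1 TPM or more, so fold changes of low genes are understated. The ovulation window was fitted with edgeR 4.0.16 (filterByExpr, TMM, robust quasi-likelihood) in R 4.3.3. The difference between windows was the limma effect on log2(CPM + 1) minus that on log2(TPM + 1), with Satterthwaite degrees of freedom. P-values were two-sided and adjusted by Benjamini-Hochberg over all genes tested, with a threshold of 0.05. Scripts were tested on simulated data. Alternatives were the pseudocount, filters, scaling, DESeq2 1.42.0, limma on the counts, a replicate block, the oocyte share as a covariate, libraries left out, and, added after seeing the data, subunit shares without the libraries that stood apart.

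The members, their roles, the other gene lists and the tests were chosen with earlier results of these data known. Full values are given for the gene of smallest p in each role and for Mcm2, Pcna, Cdt1, Cdc6, Rrm2, E2f1, Ccne1, Ccne2 and Cdc25a. Of each further list the gene of smallest p in each direction was named, and Cdkn1a, Cdkn1b, Ccnd2, E2f7, E2f8 and Gmnn in any case. The closing section gives the markers not described with the results.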

Additional observations from a re-analysis of the deposited data

Results flagged for a closer look

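In the maturation PFNA libraries, 46 sets of values (the 45 genes and their mean deviation) were searched for a library far from the others. Far meant a gap to the next library of more than 0.466 of the whole range (n = 10), and 7 sets had such a library. About 2.3 would be met by chance if the sets were independent. They share the same libraries, so the 7 are not separate findings. In each of the 7 the library was PFNA replicate 1 and was the highest. Its levels were 24.3 TPM for Rrm1 (next highest 16.6), 0.853 TPM for Pola1 (0.574), 5.53 TPM for Pole (3.11), 68.4 TPM for Fen1 (46.8), 17.5 TPM for Lig1 (11.6), 11.97 TPM for Chaf1a (6.26) and 24.8 TPM for E2f1 (15.6).

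For 37 genes the test of the difference between windows was called (limma adjusted p under 0.05), with the PFNA effect on the log2 scale higher in the ovulation window. The difference was 0.75 for Orc6, 2.5 for Cdc6, 2.22 for Cdt1, 1.59 for Mcm2, 2.22 for Mcm3, 1.69 for Mcm4, 2.20 for Mcm5, 1.65 for Mcm6 and 1.07 for Mcm7. In helicase activation it was 2.77 for Mcm10, 2.13 for Cdc45, 1.40 for Gins1, 0.53 for Gins2 and 0.50 for Gins3. Among primase and polymerase genes it was 1.57 for Pola2, 2.78 for Prim1, 2.19 for Pole, 2.05 for Pold1 and 0.81 for Pold2. For the clamp loader and lagging strand it was 1.25 for Rfc2, 0.49 for Rfc3, 2.47 for Rfc4, 1.83 for Rfc5, 0.66 for Fen1 and 2.81 for Lig1. Nucleotide supply gave 1.09 for Rrm1, 1.81 for Rrm2, 1.13 for Tyms and 1.85 for Tk1. Chromatin copying gave 2.46 for Uhrf1, 1.56 for Chaf1a and 2.17 for Chaf1b. G1/S control and the checkpoint gave 2.32 for E2f1, 0.60 for E2f2, 1.03 for Ccne2, 1.67 for Tipin and 1.91 for Clspn.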

How the results depend on the processing

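In the maturation window the 41 lower calls held with each pseudocount, with median-ratio and TMM scaling and without PFNA replicates 1 and 2, while the oocyte share as a covariate left 22 genes lower and 968 genes called over the whole table (4030 in the main fit). The median log2 fold change was -0.78 at a pseudocount of 5, -1.25 without PFNA replicates 1 and 2 and -0.58 with the oocyte share, and the cause of the last was not tested. For the ovulation window a mean of at least 10 CPM left 30 genes tested and 2 lower, and the oocyte share gave a median of 0.34. Limma on log2(CPM + 1), the fit behind the difference between windows, gave 22 genes higher and 5 lower, with a median of 0.44. In that fit 37.3% of all genes tested were higher and 36.0% lower. Against 28 higher in the main fit, 25 were higher without a filter and 29 with DESeq2 or median-ratio factors. The median difference between windows was 0.95 with the oocyte share.

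Leaving out each library in turn gave 40 to 41 lower genes, a median of -1.17 to -1.01 and 3586 to 4588 genes called in the maturation window. For the ovulation window it gave 22 to 30 higher and 4 to 5 lower genes, a median of 0.44 to 0.62 and 9654 to 10029 genes called.

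Effects that changed sign were uncalled in the main fits and in the alternatives. With the oocyte share they were, in the maturation window, Cdc25a at 0.077, and in the ovulation window Chaf1a at -0.30, Pold2 at -0.11, Rrm1 at -0.047, Rrm2 at -0.20 and Tyms at -0.18. Gins2 was at 0.011 with DESeq2 and 0.010 with median-ratio factors, Gins4 at 0.071 with at least 10 CPM, Pold2 at -0.017 without a filter and -0.022 with limma, and Rrm2 at -0.0099 with limma. With libraries left out in turn, the ranges crossed 0 for E2f2 (-0.14 to 0.048), Gins2 (-0.10 to 0.041), Gins4 (-0.11 to 0.029), Pold2 (-0.093 to 0.075) and Rrm2 (-0.087 to 0.12). The difference between windows changed sign for Ccne1 (0.072 at a pseudocount of 0.1, 0.19 without maturation PFNA replicates 1 and 2), Cdc25a (0.0014 without those replicates), and Pcna (-0.30) and Pole2 (-0.20) with the oocyte share. Of 22 subunit shares, 21 kept their direction and their side of the threshold without the libraries that stood apart, and the share of Gins3 in the maturation window, uncalled, changed sign to -0.335 percentage points.

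With the replicate number as a block, 40 genes were lower and 2895 genes were called in the maturation window, and 22 were higher and 5 lower with 9333 genes called in the ovulation window, where Rrm2 was at -0.043. The block left the difference between windows at 37 genes. The numbers did not pair the libraries: same-numbered libraries had correlated deviations of -0.138 to 0.168 over 9 pairs in the maturation window and -0.193 to 0.0730 over 11 pairs in the ovulation window, and 0 PFNA libraries correlated best with their own number.

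The depth of the TPM values is unknown, so the certainty of Orc1, Pola1 and Prim2 at their low levels in the maturation window could not be judged. They were tested only without the limit on low values, where 44 of 45 genes were lower.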

Other observations

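Markers of other cell types were measured beside the replication genes. During maturation 0 of 5 endothelial, 0 of 4 surface epithelium, 2 of 3 immune and 1 of 9 theca and stroma markers tested were higher with PFNA, and 1 theca and stroma marker was lower. During ovulation 6 of 7 endothelial, 2 of 2 surface epithelium, 3 of 7 immune and 6 of 10 theca and stroma markers tested were higher, and 2 theca and stroma markers were lower, where 38.0% of all genes tested were higher and 35.2% lower in that window (13.3% and 16.1% during maturation). The T cell marker Cd3e, chosen after its values were seen, went from 0.192 ± 0.179 to 275 ± 143 CPM in the ovulation window (mean ± SD, n = 12 and 11), with 11 of 11 PFNA libraries above every control, and made up 58.7% to 98% of the summed immune level in the PFNA libraries and 0% to 11.5% in the controls. Of the other immune markers there, Cd68 and C1qa were higher, and Adgre1, Csf1r and Lyz2 were not called. Ptprc was not called either, at 1.09 CPM in the controls and 2.16 CPM with PFNA (edgeR adjusted p = 0.162), and Cd79a was not tested. Whether the Cd3e values came from T cells was not tested.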
